A study of Homo sapiens with 17 samples.

Results

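Transcripts of the EGFR family were measured by RNA sequencing in squamous cancer cells. The set held 10 of the 57820 genes in the deposited tables, matched by gene symbol: 3 receptors (EGFR, ERBB2 and ERBB3), 5 ligands of EGFR (AREG, EREG, HBEGF, TGFA and BTC), NRG1, which is a ligand of ERBB3, and the inhibitor ERRFI1. All 10 were found, each in 1 row. The symbols were chosen for what the genes encode, with earlier results of these data known.

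The family works as pairs of receptors. A ligand such as amphiregulin (AREG) is made as a membrane-anchored precursor, is cut loose by a metalloprotease, and binds EGFR, which then pairs with another family member and phosphorylates it. ERBB2 binds no known ligand and acts as a partner, while ERBB3 has a weak kinase and binds neuregulins. The receptors signal through RAS and ERK, which switch on genes of feedback proteins. ERRFI1 (MIG6) is such a feedback protein and blocks the EGFR kinase. In squamous epithelium EGFR drives proliferation of the basal layer.

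The study asked how SOX2, the gene of a lineage transcription factor, is controlled by e1, a noncoding enhancer near it. There were 17 libraries in 8 groups, 13 from KYSE140 cells of an esophageal squamous carcinoma and 4 from SKMES1 cells, a line of lung squamous carcinoma. For e1 repression by CRISPRi, KYSE140 cells stably carried inactive Cas9 fused to a transcriptional repressor, and received either 1 of 2 e1 guides (2 libraries) or 1 of 2 negative-control guides with no genomic site (2 libraries). For SOX2 knockout, KYSE140 cells carried active Cas9 with SOX2 guide 2, 3 or 4 (3 libraries), or a control guide to AAVS1 or to a site on chromosome 2 (2 libraries). For drug treatment, KYSE140 cells with no guide named in the labels received 0.5 µM ARV-771, which degrades bromodomain (BET) proteins, for 6 h (2 cultures, A and B) or the solvent DMSO (2 cultures). For e1 activation by CRISPRa, SKMES1 cells carried inactive Cas9 fused to the activator VP64, and RNA stem-loops brought in further transcriptional activators. These cells received e1 guide 1 or 3 (2 libraries) or 1 of 2 negative-control guides (2 libraries). Guide-bearing cells were drug-selected pools and not clones, each repeat being another guide, so p-values measure the spread between these libraries. No time after infection was given in the labels.

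Total expected counts ranged from 7260730 to 15781463 per library, and 3 counts stood at 0.19 to 0.413 CPM, a count per library total. These bounds cover counting error only. SOX2 itself, in TPM (a library's transcripts scaled to a fixed total, so a level per transcript length), fell from 379 and 365 under negative-control CRISPRi guides to 120 and 128 on e1 repression. Knockout controls had 397 and 428, against 103, 125 and 221 for SOX2 guides 2, 3 and 4. Cut coding sequence can still be transcribed, so the RNA is an incomplete check of a knockout. SOX2 was 236 and 223 with DMSO, 9.80 and 10.5 with ARV-771, 1.68 and 1.53 in the CRISPRa controls and 224 and 316 after e1 activation. The 2 CRISPRa control libraries stood farthest apart of all replicate pairs (chi-square per degree of freedom 28.8, against 2.19 to 13.4 elsewhere). In the second of them KRT14 had 1404 counts, and in the other 3.16. KYSE140 expressed all 6 squamous markers, with KRT5 from 2398 to 8392 TPM. SKMES1 did not show that profile. There KRT5 was at most 1.26 TPM, DSG3 at most 0.1 TPM, TP63 at most 3.79 TPM and KRT6A at most 19.2 TPM. However, PKP1 reached 141 TPM, and KRT14 reached 118 TPM in the second CRISPRa control library. The 3 leukocyte markers and CDH5 (endothelial) had at most 4 counts in any library, and VWF at most 0.82 TPM.

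A gene was called when its Benjamini-Hochberg adjusted p in edgeR's quasi-likelihood test was under 0.05 and its fold change over 1.5. After e1 repression 6 of the 9 members tested were called: 5 rose (AREG, HBEGF, TGFA, NRG1 and ERRFI1) and BTC fell. Among all 13792 genes tested, 20.0% were called, 9.30% as risen and 10.7% as fallen. After SOX2 knockout 6 of 9 were called: 5 rose (ERBB3, AREG, HBEGF, TGFA and ERRFI1) and BTC fell, against 29.7% of all 13978 genes, 16.3% risen and 13.5% fallen. EREG did not pass the count filter in KYSE140 and is counted as untested there. The median log2 fold change of the tested members was 1.30 after e1 repression and 0.62 after knockout, beside -0.002 and -0.007 over all genes.

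**Figure D1:**
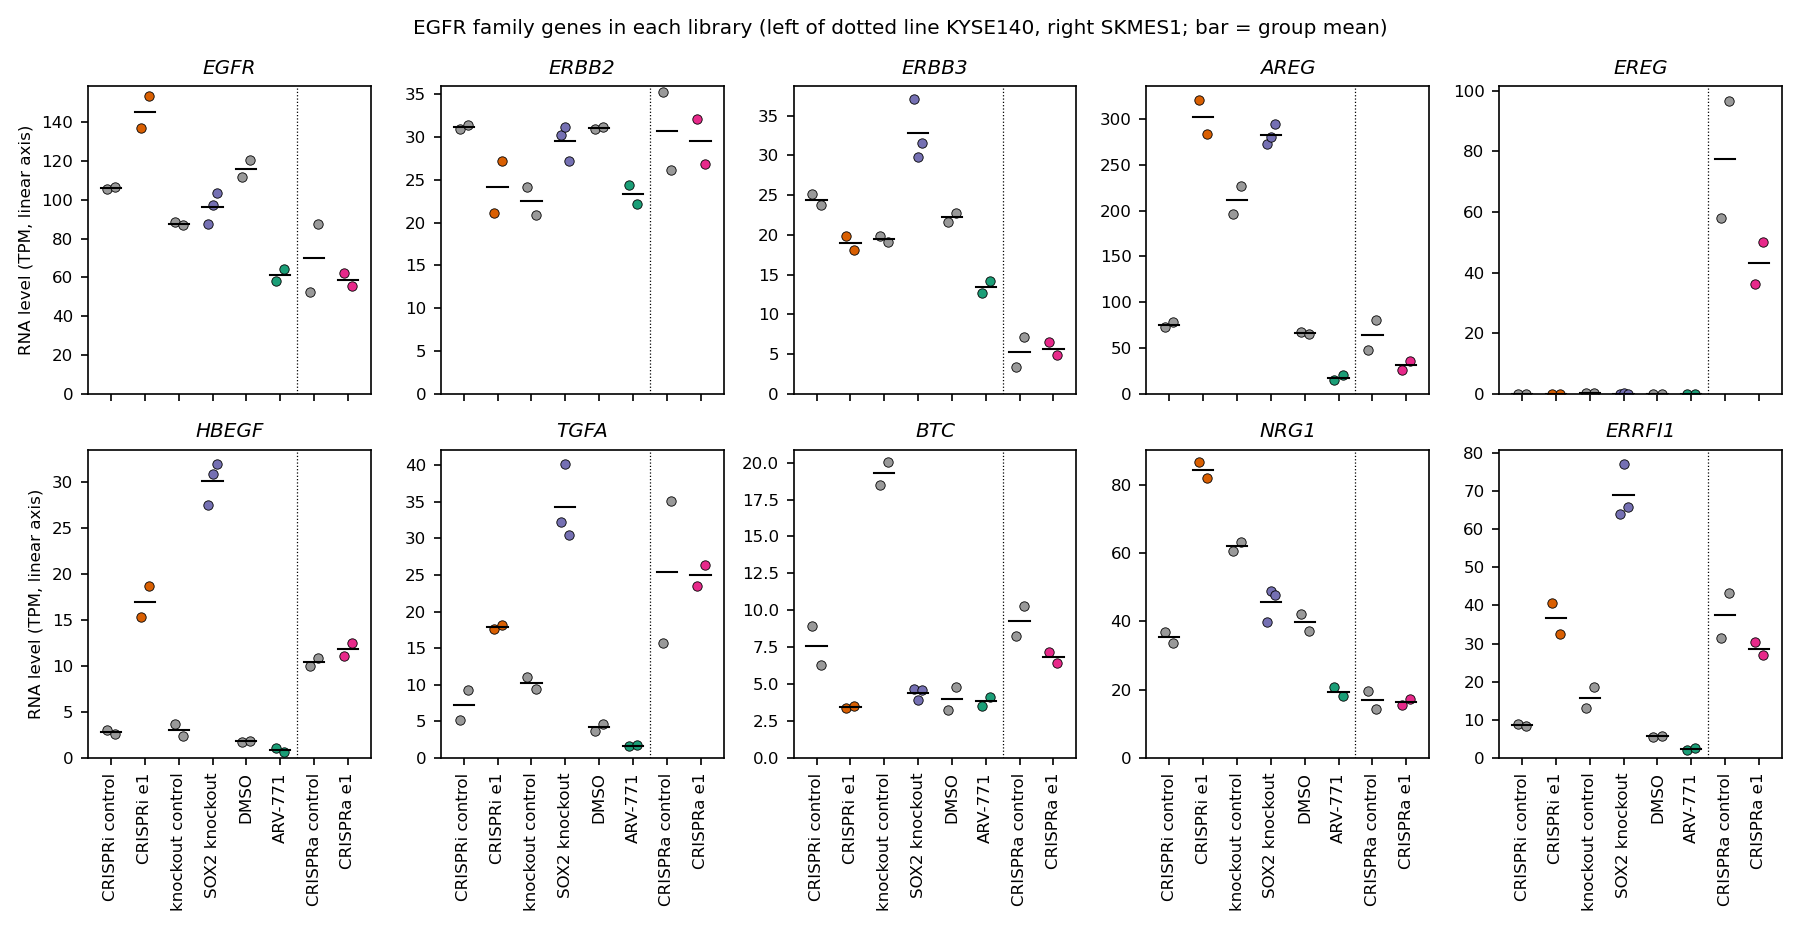
RNA level in TPM (linear axis from 0) of each gene in each library, as points by group, with a bar at the group mean (2 libraries a group, 3 for SOX2 knockout). KYSE140 groups lie left of the dotted line and SKMES1 groups right of it. HBEGF, TGFA and ERRFI1 stand above their controls after e1 repression and SOX2 knockout and below them with ARV-771. EREG reaches at most 0.27 TPM in KYSE140.

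Among the receptors, EGFR transcripts were the most abundant and ERBB3 lay below its controls after e1 repression and above them after knockout. EGFR (chr7:55086710-55279321 in GRCh37, plus strand) was 106 and 106 TPM in CRISPRi controls, against 137 and 154 TPM after e1 repression. The groups did not overlap, but the fitted log2 difference of 0.45 (SE 0.05, edgeR adjusted p = 7.36e-06) was short of the fold threshold. Knockout controls had 88.5 and 87.0 TPM, against 87.4, 97.5 and 103 TPM with SOX2 guides 2, 3 and 4. Those groups overlapped, and the log2 difference of 0.30 (SE 0.07) was not called.

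ERBB2 (chr17:37844167-37886679, plus strand), the partner receptor, was 31.0 and 31.4 TPM in the CRISPRi controls and 21.1 and 27.2 TPM after e1 repression. Its level in knockout controls was 24.2 and 20.9 TPM, compared with 30.2, 31.1 and 27.2 TPM under the SOX2 guides. Neither pair of groups overlapped, the e1-repressed libraries being the lower and the knockout libraries the higher, with log2 differences of -0.49 (SE 0.07) and 0.55 (SE 0.10) that missed the fold threshold. The knockout value passed it without the first control library (0.69) and without SOX2 guide 4 (0.61).

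ERBB3 (chr12:56470583-56497289, plus strand), the neuregulin receptor, was 25.1 and 23.8 TPM in the CRISPRi controls and 19.8 and 18.1 TPM after e1 repression. With the SOX2 guides it was 37.05, 29.8 and 31.6 TPM, against 19.9 and 19.1 TPM in their controls. ERBB3 rose in knockout cells by a log2 fold change of 0.82 (SE 0.09, edgeR adjusted p = 7.44e-06). Its log2 difference of -0.58 after e1 repression (SE 0.08, adjusted p = 1.44e-05) lay just under the fold threshold and passed it by library size (-0.62), without the count filter (-0.59) and without the second control library (-0.59).

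The receptor that made up most of the 3-receptor sum was EGFR in all groups, with mean shares from 60.6% (SOX2 knockout) to 77.1% (e1 repression). Library by library the share ran from 56.5% to 77.2%. The sum of the 3 receptors was 162 and 161 TPM in the CRISPRi controls, and 178 and 199 TPM after e1 repression. ERBB4, the remaining receptor, had at most 3 counts in any KYSE140 library and 3 and 4 counts in the CRISPRa controls, with 36 and 40 after e1 activation, where it was not called.

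Amphiregulin was the leading EGFR ligand in KYSE140. It rose after e1 repression and, by less, after SOX2 knockout, but fell with ARV-771, which also lowered SOX2. AREG (chr4:75310853-75320722 in GRCh37, plus strand) was 73.2 and 78.1 TPM in CRISPRi controls, against 321 and 283 TPM after e1 repression. The knockout series gave 196 and 227 TPM in controls, against 273, 280 and 294 TPM for the SOX2 guides. The groups were separate in both experiments, but the knockout controls started well above the CRISPRi controls. The log2 fold change was 2.05 after e1 repression (SE 0.08, edgeR adjusted p = 2.03e-11) and 0.62 after knockout (SE 0.07, adjusted p = 2.19e-05).

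The rise of AREG in knockout cells sat near the fold threshold and was not called when scaled by library size (0.42), in limma on TPM (0.42) or without the first control library (0.56). The other 8 alternatives left it called. The hg19 annotation carries a second copy, AREGB (chr4:75480629-75490486), and RSEM split reads between the copies. AREGB held between 0 and 43.8 expected counts and was at 0 in 9 of 17 libraries. With both copies summed, AREG changed by 2.07 after e1 repression and 0.60 after knockout, both called.

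The promoters of 4 ligands and of ERRFI1 are shown for the patterns of these genes. In KYSE140 AREG, HBEGF and ERRFI1 rose, and BTC fell, after both e1 repression and SOX2 knockout. EREG was near 0 in KYSE140 and high in SKMES1. Each run is the 250 bases before the RefSeq transcript start, 5′ to 3′ on the gene's strand, from the RefSeq table of assembly GRCh38.p14 and placed in GRCh37 by exact match. Of the 10 members 8 had an entry, and ERBB3 and NRG1 had none. Capitals mark a match, on either strand, to a motif, with no overlaps here. The AP-1 motif searched was TGANTCA, found in 6.57% of the 35116 promoters of that length. The CRE motif was TGACGTCA, found in 1.65%. The SOX motif was AACAATG, found in 2.87%. The box motif known as TATA was searched as TATAAA and found in 10.7%.
AREG, chr4:75310603-75310852, plus strand: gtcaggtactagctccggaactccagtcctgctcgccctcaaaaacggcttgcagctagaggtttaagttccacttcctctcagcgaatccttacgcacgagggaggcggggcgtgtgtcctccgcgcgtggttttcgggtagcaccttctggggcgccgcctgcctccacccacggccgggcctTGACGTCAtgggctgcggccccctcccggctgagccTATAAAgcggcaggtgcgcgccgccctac
EREG, chr4:75230612-75230861, plus strand: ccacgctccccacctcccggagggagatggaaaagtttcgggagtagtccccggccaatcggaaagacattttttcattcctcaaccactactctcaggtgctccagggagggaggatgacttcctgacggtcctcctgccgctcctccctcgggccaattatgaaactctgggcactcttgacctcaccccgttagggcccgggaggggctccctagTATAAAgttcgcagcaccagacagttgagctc
HBEGF, chr5:139726189-139726438, minus strand: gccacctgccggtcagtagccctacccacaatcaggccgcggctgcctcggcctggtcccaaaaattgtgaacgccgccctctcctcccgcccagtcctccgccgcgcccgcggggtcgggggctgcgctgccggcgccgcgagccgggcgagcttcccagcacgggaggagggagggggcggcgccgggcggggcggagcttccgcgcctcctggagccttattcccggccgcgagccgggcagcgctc
BTC, chr4:75719734-75719983, minus strand: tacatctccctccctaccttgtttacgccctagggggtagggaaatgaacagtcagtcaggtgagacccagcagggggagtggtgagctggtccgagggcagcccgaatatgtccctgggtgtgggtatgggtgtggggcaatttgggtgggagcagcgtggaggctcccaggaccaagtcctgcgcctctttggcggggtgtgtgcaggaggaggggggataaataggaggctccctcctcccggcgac
ERRFI1, chr1:8086370-8086619, minus strand: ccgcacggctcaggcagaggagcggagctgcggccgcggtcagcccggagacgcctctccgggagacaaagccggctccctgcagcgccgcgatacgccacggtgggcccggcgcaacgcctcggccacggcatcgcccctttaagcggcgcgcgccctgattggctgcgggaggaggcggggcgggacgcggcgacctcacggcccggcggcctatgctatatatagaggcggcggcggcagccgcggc

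The AREG promoter held a CRE, starting 65 bases before the transcript start, and a TATA match at 29 bases. EREG held a TATA match at 32 bases, and the HBEGF, BTC and ERRFI1 windows held none of the 4 motifs, nor did those at the 2 starts of TGFA, which are not printed. Among the receptors, AP-1 letters began 222 bases before the start of ERBB2. Of the 2 EGFR starts, 1 lies inside the gene (window chr7:55177282-55177531). AP-1 letters began 232 and 136 bases, and TATA letters 146 and 36 bases, before that start. The window at the 5′ end of EGFR (chr7:55086460-55086709) held none of the 4 motifs. The AREG window matched GRCh37 at a second place, chr4:75480379-75480628, before AREGB. No member promoter in the table held the SOX letters in this window. GC content was 65.2% for AREG, 58% for EREG, 76.4% for HBEGF, 62% for BTC and 75.2% for ERRFI1, against a median of 58% over all promoters. A match is a description of letters and says nothing of binding.

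HBEGF and TGFA rose after both e1 repression and SOX2 knockout. HBEGF (chr5:139712428-139726188, minus strand) encodes a heparin-binding ligand whose precursor can also signal to the neighbouring cell. It was 3.02 and 2.55 TPM in the CRISPRi controls and 15.4 and 18.6 TPM after e1 repression. Knockout controls had 3.64 and 2.33 TPM, against 27.5, 30.8 and 31.9 TPM with SOX2 guides 2, 3 and 4. All treated libraries stood above all controls, and the log2 fold change was 2.78 (SE 0.17, edgeR adjusted p = 2.56e-09) after e1 repression and 3.48 (SE 0.16, adjusted p = 7.36e-09) after knockout.

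TGFA (chr2:70674416-70781325, minus strand), a ligand that sends EGFR back to the cell surface after uptake, was 5.12 and 9.33 TPM in the CRISPRi controls and 17.6 and 18.2 TPM after e1 repression. Its level in knockout controls was 11.1 and 9.38 TPM, compared with 32.3, 40.1 and 30.5 TPM under the SOX2 guides. The groups were separate in both experiments, with log2 fold changes of 1.70 (SE 0.12, edgeR adjusted p = 1.04e-08) and 1.91 (SE 0.11, adjusted p = 4.44e-08).

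Betacellulin fell in both experiments. BTC (chr4:75669969-75719733, minus strand) binds EGFR and ERBB4. It was 8.91 and 6.30 TPM in the CRISPRi controls and 3.35 and 3.52 TPM after e1 repression. With the SOX2 guides it was 4.64, 3.91 and 4.57 TPM, against 18.5 and 20.02 TPM in their controls. All treated libraries lay below all controls of their experiment, and the log2 fold change was -0.96 (SE 0.21, edgeR adjusted p = 0.00146) after e1 repression and -1.99 (SE 0.19, adjusted p = 2.76e-06) after knockout.

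Epiregulin was near absent from KYSE140. EREG (chr4:75230862-75254466, plus strand) lies beside AREG and BTC in a cluster of ligand genes on chromosome 4, and had at most 0.27 TPM in any of the 13 KYSE140 libraries. In SKMES1 it was 58.2 and 96.7 TPM in the CRISPRa controls and 36.2 and 50.01 TPM after e1 activation. EPGN, the epigen gene of the same cluster (chr4:75174187-75182506), behaved otherwise. It had 0 and 1 counts in the knockout controls and 243, 96 and 84 counts with the SOX2 guides, which is 35.3, 20.5 and 25.5 TPM, and was called as risen. After e1 repression EPGN had 5 and 4 counts against 1 and 0, too few to be tested. No fold is given for EPGN, since its knockout controls held 1 count in all.

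**Figure D2:**
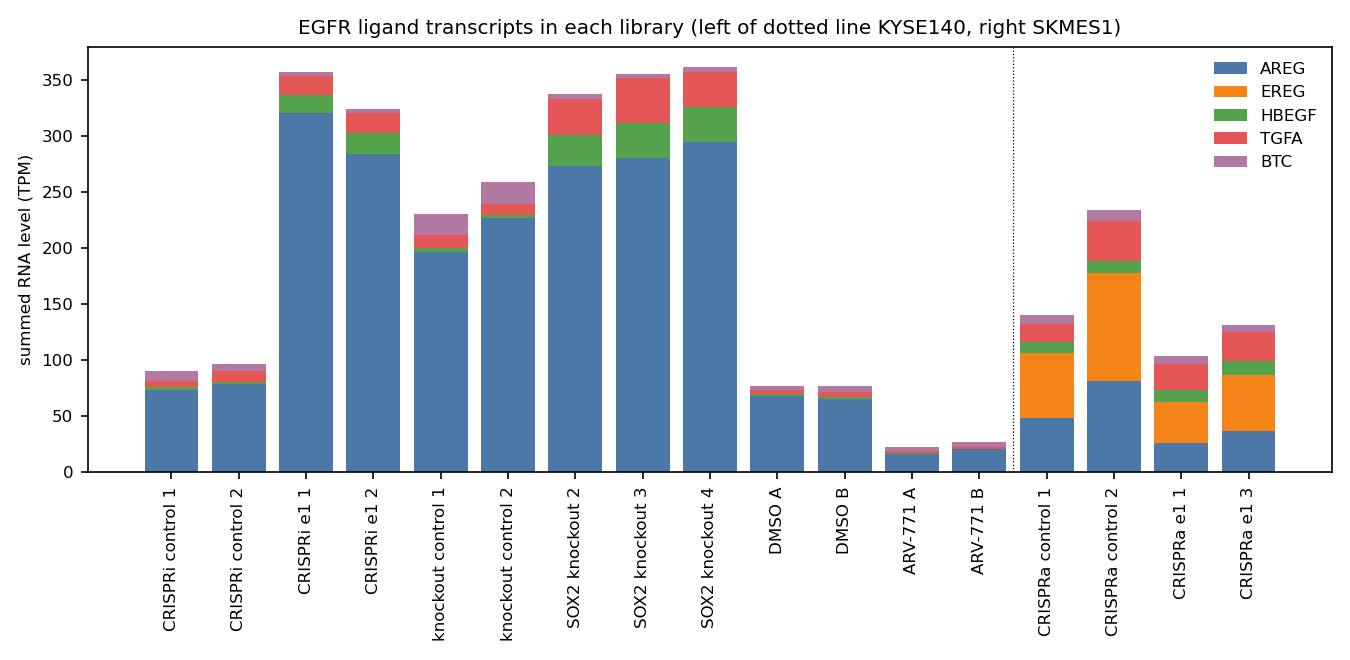
Summed RNA level in TPM of the 5 EGFR ligands in each library, stacked by ligand, left of the dotted line KYSE140 and right of it SKMES1. AREG makes up most of each KYSE140 bar, and EREG is visible in the SKMES1 bars, being at most 0.27 TPM in KYSE140.

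The 5 EGFR ligands together came to 93.3 ± 4.29 TPM (SD, n = 2) in the CRISPRi controls and 340 ± 23.4 TPM (SD, n = 2) after e1 repression. They came to 244 ± 20.5 TPM (SD, n = 2) in the knockout controls and 351 ± 12.4 TPM (SD, n = 3) with SOX2 guides. The groups were separate within each experiment, the knockout controls holding more ligand transcript than the CRISPRi controls. AREG made up a group mean of 73.5% to 88.7% of the sum in KYSE140, but 34.5% in the SKMES1 controls and 26.2% after e1 activation. A sum over genes carries no test here. It leaves out EGF, and EPGN, which averaged 27.1 TPM with the SOX2 guides and 0.235 TPM in the knockout controls.

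NRG1, the neuregulin that binds ERBB3, rose after e1 repression and was not called after knockout. NRG1 (chr8:31496738-32713184 in GRCh37, plus strand) was 36.97 and 33.6 TPM in the CRISPRi controls and 86.7 and 82.0 TPM after e1 repression, a log2 fold change of 1.30 (SE 0.07, edgeR adjusted p = 7.26e-10). The knockout series gave 60.7 and 63.3 TPM in controls, against 39.8, 49.0 and 47.9 TPM for the SOX2 guides. These last groups were separate, the knockout libraries being the lower, yet the log2 difference was -0.23 (SE 0.10, adjusted p = 0.0612).

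ERRFI1, the feedback inhibitor of EGFR, rose in both experiments. ERRFI1 (chr1:8064464-8086369, minus strand) was 9.02 and 8.27 TPM in the CRISPRi controls and 40.7 and 32.5 TPM after e1 repression. Knockout controls had 13.01 and 18.6 TPM, against 64.0, 77.0 and 65.7 TPM with SOX2 guides 2, 3 and 4. Treated and control libraries were separate in both experiments. The log2 fold change was 2.22 (SE 0.11, edgeR adjusted p = 2.22e-10) and 2.33 (SE 0.11, adjusted p = 1.10e-08).

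**Figure D3:**
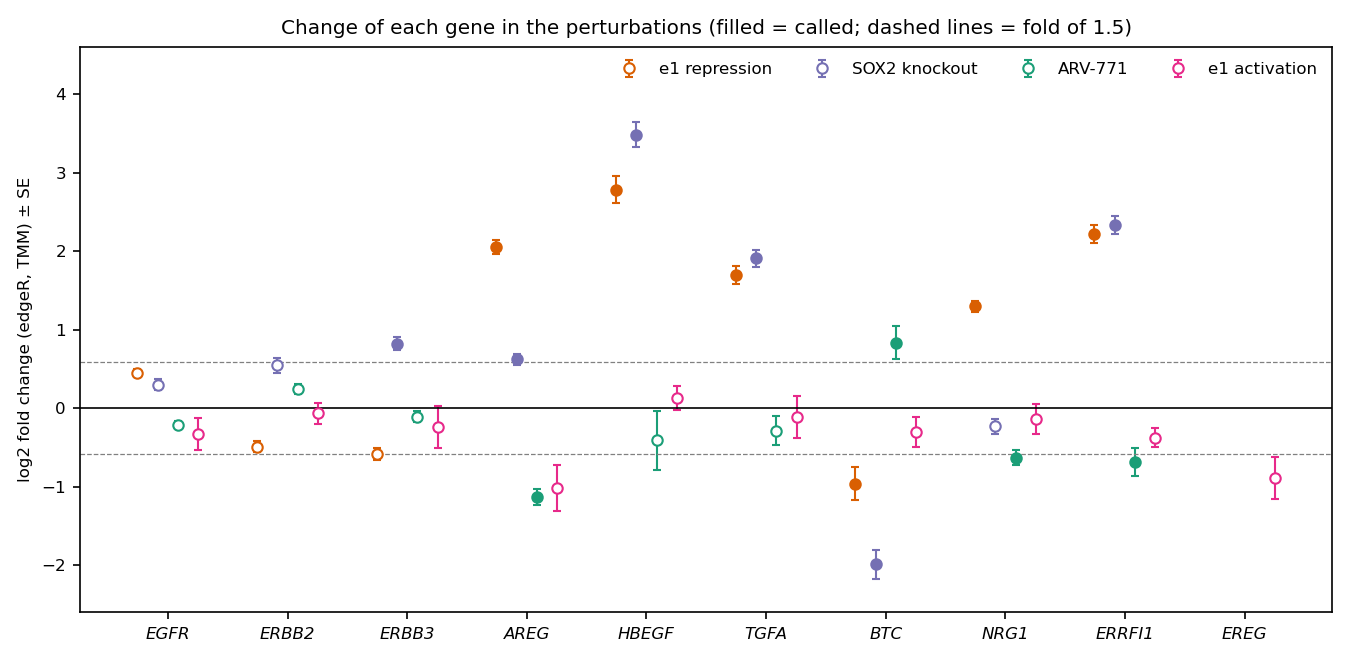
Log2 fold change with its standard error for each gene in the 4 perturbations, filled where called. Dashed lines mark a fold of 1.5. AREG is 2.05 after e1 repression and 0.62 after knockout, and ERBB3 is -0.58 and 0.82.

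To ask where repression of e1 and loss of SOX2 differed, the 2 effects were subtracted within 1 fit over their 9 libraries. Among the 9 members tested 5 differed, against 16.6% of all 14455 genes. Of all genes 8.21% had the higher and 8.37% the lower log2 fold change after e1 repression. AREG, NRG1 and BTC had the higher log2 fold change after e1 repression, BTC falling less there than after knockout. The differences of log2 fold changes were 1.45 (edgeR adjusted p = 1.57e-06), 1.55 (adjusted p = 1.81e-06) and 1.05 (adjusted p = 0.0143). ERBB2 (difference -1.02, edgeR adjusted p = 8.23e-05) and ERBB3 (-1.38, adjusted p = 2.19e-06) had the lower log2 fold change after e1 repression. For HBEGF (-0.68, adjusted p = 0.0677), TGFA (-0.19), ERRFI1 (-0.09) and EGFR (0.17) no difference was called, although that of HBEGF was called without the second e1 library (-0.83) and without the first knockout control (-1.09). The call for BTC was lost without the second CRISPRi control (0.99), the second e1 library (0.99) or the second knockout control (0.93).

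The baselines of the 2 control pairs differed where these calls arose, with AREG at 75.6 TPM on average in the CRISPRi controls and 212 TPM in the knockout controls. NRG1 averaged 35.3 and 62.0 TPM in those controls, and BTC 7.61 and 19.3 TPM. ERBB2 averaged 31.2 and 22.6 TPM in them and ERBB3 24.4 and 19.5 TPM, also without overlap. The control pairs carry different Cas9 proteins and guides, and whether they were grown together is not stated, so construct and culture cannot be told apart. In bulk RNA, fewer cells of a kind and less RNA per cell also cannot be told apart. Of the 5 mesenchymal markers 3 could be tested after e1 repression, of which 2 rose and 1 fell, and 4 after knockout, of which 3 rose and 1 fell. Among them VIM rose by 3.27 and 2.45 on the log2 scale and CDH2 fell by 0.90 and 1.90. KRT14 rose by 3.63 and 4.14. Of the 3 simple-epithelium markers, KRT8 and EPCAM fell in both experiments. KRT18 stood higher, at 0.56 and 0.27, and was not called. Of the 6 squamous markers 2 rose and 2 fell after e1 repression, while 5 rose and 1 fell after knockout. Their part in the results was not tested.

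After 6 h of ARV-771 AREG, the leading ligand, fell, as did NRG1 and ERRFI1. AREG was 67.8 and 65.2 TPM with DMSO and 15.6 and 20.2 TPM with ARV-771, a log2 fold change of -1.13 (SE 0.10, edgeR adjusted p = 4.25e-10). NRG1 was 42.3 and 37.2 TPM with DMSO and 20.8 and 18.1 TPM with the drug (-0.63, SE 0.10). ERRFI1 was 5.55 and 5.81 TPM with DMSO and 1.95 and 2.50 TPM with the drug (-0.68, SE 0.18). The groups were separate for all 3 genes. BTC, at 3.24 and 4.80 TPM against 3.55 and 4.11 TPM, overlapped on that scale and was called as higher by count (0.83, SE 0.21).

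Of the 9 members tested 4 were called with ARV-771, 1 risen and 3 fallen, when 52.9% of all 13500 genes were called, 21.2% as risen and 31.7% as fallen. EGFR (112 and 120 TPM with DMSO, 58.4 and 64.4 TPM with the drug) had a log2 value of -0.21. ERBB2 (30.9 and 31.1 against 24.4 and 22.2 TPM) had 0.25 and ERBB3 (21.7 and 22.8 against 12.7 and 14.2 TPM) had -0.11. HBEGF (1.77 and 1.84 against 1.08 and 0.60 TPM) and TGFA (3.73 and 4.61 against 1.57 and 1.75 TPM) were not called either, at -0.41 and -0.29.

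The values with ARV-771 depended on the scaling. Scaling by library size, limma on TPM or scaling to mitochondrial transcripts put the median log2 change of all genes at -0.50, -0.60 and -1.12 in place of -0.04. The split of all calls moved from 2857 risen and 4279 fallen to 381 and 6076, 122 and 6324, and 79 and 9524 under those scalings. BTC was then 0.37 (not called), -0.04 and -0.24, and ERBB2 was -0.21, -0.40 and -0.83, so their direction rests on the scaling. EGFR, not called at -0.21, was called as lower under all 3 (-0.67, -0.91 and -1.29), as was TGFA (-0.75, -0.95 and -1.36). ERBB3 was called as lower in limma (-0.69) and with mitochondrial scaling (-1.19), HBEGF by library size (-0.87) and with mitochondrial scaling (-1.48), and ERBB2 with mitochondrial scaling. AREG, NRG1 and ERRFI1 stayed lower under each. The call for NRG1 was lost without DMSO culture A (-0.50), without ARV-771 culture B (-0.50), with RLE factors (-0.58) and in DESeq2 (-0.58). In knockout, library size and limma on TPM moved the split from 2275 risen and 1882 fallen to 1703 and 2999, and 1477 and 2321, with the median log2 change of all genes at -0.21 and -0.17.

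Activation of e1 in SKMES1, which raised SOX2, left no member called in edgeR's quasi-likelihood test. Of the 10 members 0 were called, against 0.188% of all 14859 genes (0.168% risen and 0.0202% fallen). An unadjusted p under 0.05 was seen for 3 members, and for 2109 of all 14859 genes. AREG was 48.2 and 81.0 TPM in the CRISPRa controls and 25.9 and 36.3 TPM after activation (log2 -1.02, SE 0.29, adjusted p = 0.237). EREG, with the values given above, had -0.89 (SE 0.26, adjusted p = 0.251), and the groups were separate for both. ERRFI1 was 31.6 and 43.3 TPM in controls and 30.3 and 27.0 TPM after activation (-0.37, SE 0.12, adjusted p = 0.294). DESeq2 called AREG and EREG, where it called 400 of all 14859 genes. Leaving out each library in turn gave -0.60 to 0.011 for EGFR, -1.33 to -0.59 for AREG and -1.18 to -0.51 for EREG.

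The other 7 members gave log2 values from -0.33 (EGFR) to 0.13 (HBEGF) on e1 activation, and their groups overlapped in all but HBEGF and BTC. EGFR was 52.7 and 87.7 TPM in controls and 62.2 and 55.6 TPM after activation. The control pair alone spanned TGFA at 15.7 and 35.1 TPM and ERBB3 at 3.34 and 7.21 TPM.

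Between the control cells of the lines, 7 of 10 members were called, 4 higher and 3 lower in SKMES1, when 55.6% of all 15100 genes were called, 30.4% as higher and 25.2% as lower. EREG, HBEGF (9.99 and 10.9 TPM), TGFA and ERRFI1 were higher in SKMES1, the last 3 by log2 differences of 1.94, 2.00 and 2.00 (edgeR adjusted p = 3.98e-04, 0.00176 and 8.39e-05). ERBB3 was lower by a log2 difference of -2.85 (adjusted p = 1.49e-04), and NRG1 (19.5 and 14.2 TPM) by -1.15 (adjusted p = 8.95e-04). EREG has no fold here, since a fitted value against near-zero counts depends on the prior count.

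EGFR was lower in SKMES1 by -0.62 (edgeR adjusted p = 0.0356), and that call was lost without either KYSE140 control, without the first SKMES1 control (-0.34), in limma on TPM and against the knockout controls (-0.32). AREG, at -0.35 in the main comparison, was -1.81 against the knockout controls and -0.75 without the second SKMES1 control, both called. Line, Cas9 fusion and experiment coincide in this comparison and cannot be told apart.

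In SKMES1 the neuregulins NRG2 and NRG4 were seen as well, while NRG3 had 0 counts. NRG4 had 74 to 103 counts in the CRISPRa controls and at most 3 in any KYSE140 library, and NRG2 had 33 to 46 against at most 1. Both bind ERBB receptors, NRG4 chiefly ERBB4. Of the 6 other family genes listed (ERBB4, EGF, EPGN, NRG2, NRG3 and NRG4) 1 to 4 could be tested in each comparison. After knockout both tested ones, EPGN and EGF, were called as risen. EGF held 14 and 14 counts in controls and 54, 28 and 19 with the SOX2 guides (log2 1.13, SE 0.42), and its call was lost in 7 of 11 alternatives, also without either control or without SOX2 guide 2 or 3.

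Genes downstream of the receptors were counted over lists written from textbook knowledge. Of the 16 adaptors and kinases, 3 rose and 1 fell after e1 repression, and 4 rose and 1 fell after knockout, shares near the 20.0% and 29.7% of all genes called. SHC1, the adaptor that couples EGFR to RAS, rose by 0.79 and 0.99 on the log2 scale, and MAP2K1, the kinase of ERK, by 0.66 and 0.75, the latter call being lost by library size (0.55) and in limma on TPM (0.51). GAB1, a docking protein of EGFR, fell by 1.16 after e1 repression and rose by 1.00 after knockout, a difference of -2.13 (SE 0.22, edgeR adjusted p = 1.49e-05). Its fall was not called in limma on TPM (-1.02, adjusted p = 0.0709). Among the 12 genes of ligand release and receptor trafficking, 0 were called after e1 repression by edgeR or DESeq2. There 7 of the 12 had an unadjusted p under 0.05, as had 7053 of all 13792 genes. After knockout 1 of the 12 rose and 2 fell, a share below the 29.7% of all genes. LRIG1 (-1.58, SE 0.11), a transmembrane inhibitor that promotes receptor loss, and LRIG3 (-0.82, SE 0.10) fell. RHBDF1 (0.63, SE 0.15), which helps the protease that frees ligands, was called as risen, but not by library size (0.42), in limma on TPM (0.56), without the second control (0.57) or without SOX2 guide 2 (0.57) or 3 (0.56).

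**Figure D4:**
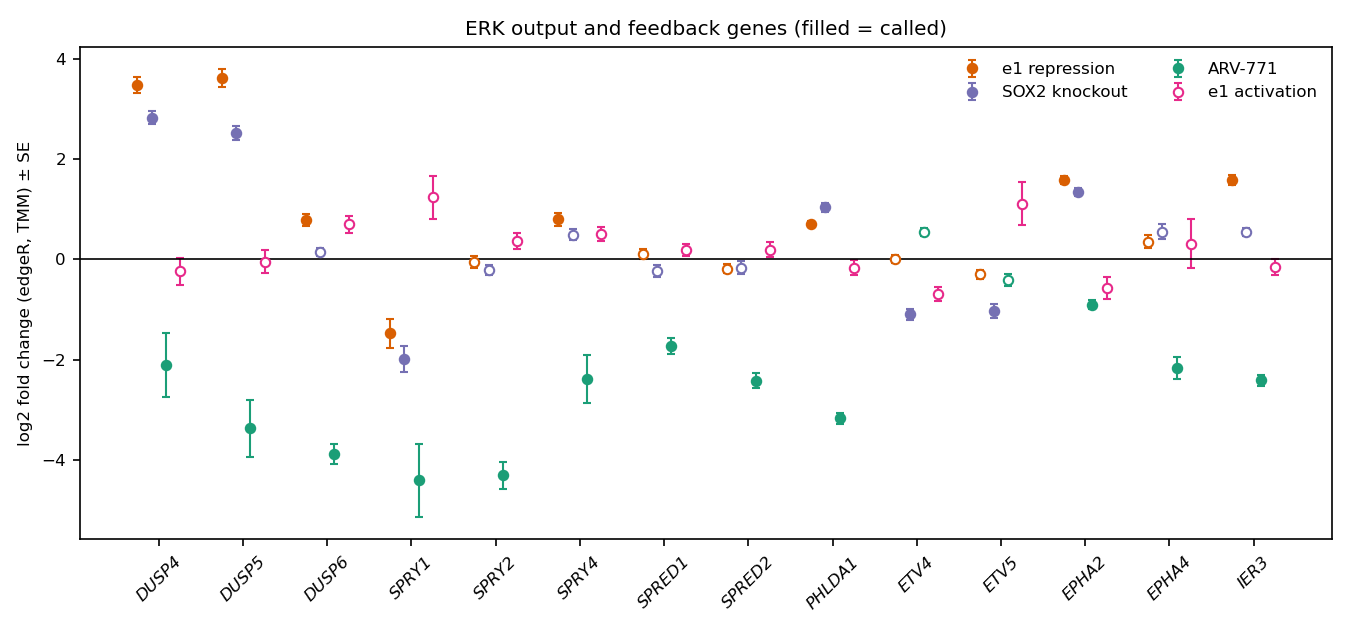
Log2 fold change with its standard error for the 14 ERK output and feedback genes, filled where called, in the 4 perturbations. DUSP4 and DUSP5 stand high after e1 repression and knockout, and most genes stand below 0 with ARV-771.

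Of the 14 genes of ERK output and feedback, 7 rose and 1 fell after e1 repression (median log2 value 0.53), where 9.30% of all genes rose and 10.7% fell. After knockout 4 rose and 3 fell (median 0.32), where 16.3% of all genes rose and 13.5% fell. DUSP4 and DUSP5, nuclear phosphatases that switch off ERK, rose by 3.49 and 3.62 on the log2 scale after e1 repression and by 2.83 and 2.52 after knockout. DUSP4 was 1.25 and 1.41 TPM in the CRISPRi controls and between 12.97 and 16.8 TPM after e1 repression. EPHA2, a receptor kinase induced by ERK, rose by 1.59 and 1.34. The members that fell were SPRY1 after e1 repression, and SPRY1, ETV4 and ETV5 after knockout, the last 2 being transcription factors of the ETS family.

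With ARV-771, 12 of the 14 fell and 0 rose, with a median log2 value of -2.40, where 31.7% of all genes fell and 21.2% rose. DUSP6, the cytoplasmic ERK phosphatase, went from 13.1 and 21.3 TPM to 0.6 and 1.17 TPM (-3.87, SE 0.20), and PHLDA1 fell by 3.17, IER3 by 2.41 and SPRED2 by 2.42. LRIG3 fell by 3.67 in the trafficking list, in which 2 genes rose and 4 fell, and of the adaptors 2 rose and 3 fell, neither share being above the 52.9% of all genes called. ADAM10, the protease that frees several ligands, and MAPK3 (ERK1) were called as risen (0.67 and 0.68) but were below 0 in limma on TPM (-0.07 and -0.11) and with mitochondrial scaling (-0.41 and -0.40). On e1 activation 0 of the 42 genes of these 3 lists were called by edgeR, and DESeq2 called 1 of them, LRIG1. An unadjusted p under 0.05 was found for 10 of the 42, and for 2109 of all 14859 genes. Between the lines 6 of the 14 were higher in SKMES1 and 3 lower, where 55.6% of all genes were called in either direction.

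The genes whose level followed EGFR most closely over the 13 KYSE140 libraries, by Pearson's r of log2(TPM + 1) among 10535 genes, were SIRPA (0.97), FZD2 (0.97) and RP13-238F13.5 (0.96). Among the members NRG1 was the nearest at 0.75, AREG was 0.61 and BTC was -0.17. The libraries share a line and fall into 6 groups, so these values describe mainly differences between groups. EGFR itself ranked highest after e1 repression (145 TPM on average), then with DMSO (116) and in the CRISPRi controls (106), groups that did not overlap. Below those, the SOX2-knockout libraries (96.1) overlapped the knockout controls (87.7), and ARV-771 was lowest in KYSE140 (61.4).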

How the data were processed

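Poly-A RNA of 17 libraries was sequenced by the authors from directional libraries. Per their methods, reads were aligned to hg19 with Bowtie2 and GENCODE genes quantified with RSEM, tools also named in the submitters' processing notes. Versions and RSEM's strand setting are not given in the sources used here. The deposited expected counts are estimates by RSEM, which shares ambiguous reads among genes and does not normalize between libraries. The deposited TPM values were scaled by the authors' RSEM run within each library per effective length. Deposited FPKM values were not used.

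Groups came from the sample labels. Expected counts were rounded and tested across all genes with edgeR 4.0.16 (R 4.3.3), TMM factors, filterByExpr (minimum count 10, minimum total 15), the groups compared only and Benjamini-Hochberg adjustment over all genes tested, as checked on simulated data. Genes were called at an adjusted p under 0.05 and a fold over 1.5, the cut-offs of the study. Alternatives used RLE factors, library size, mitochondrial scaling (ARV-771), DESeq2 1.42.0, limma 3.58.1 on log2(TPM + 1) for a mean TPM of at least 1, no filter, no minimum fold, AREG summed with AREGB, other KYSE140 controls for the comparison of lines, a replicate block and each library left out. Each replicate pair differed beyond sampling noise, so each library counted as 1 replicate.

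Members and lists were chosen with earlier results of these data known. Named were the members, SOX2, AREGB, per list and comparison at most 4 called genes of smallest p, and the 3 genes most like EGFR. SPRY1, ETV4, ETV5, ERBB4, NRG2, NRG4, marker genes and DESeq2's LRIG1 call were named after their values were seen. Marker genes were those of a fixed list, of which PECAM1 was not analysed here.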

Additional observations from a re-analysis of the deposited data

Results flagged for a closer look

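In 5 members e1 repression and SOX2 knockout acted differently by the test of the difference itself in edgeR. The log2 fold change after e1 repression minus that after knockout was -1.02 for ERBB2, -1.38 for ERBB3, 1.45 for AREG, 1.05 for BTC and 1.55 for NRG1. The 2 experiments had separate controls, whose levels of all 5 genes differed, and the part of that in these values was not tested.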

How the results depend on the processing

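Over the alternatives, 1314 log2 fold changes of members, SOX2 and named list genes kept direction and call. Another 60 lost the call, 28 gained it and 26 turned direction. Of 76 counts of members called 72 stayed within 1.5 times. Scaled to mitochondrially encoded genes, 8 members were called with ARV-771, where 9603 of all 13500 genes were called. The log2 values of ERBB2, BTC, ADAM10 and MAPK3 were then -0.83, -0.24, -0.41 and -0.40. In limma on TPM they were -0.40, -0.04, -0.075 and -0.11, and ERBB2 was -0.21 by library size. In e1 activation 2 members were called by DESeq2, 2 without a filter and 0 to 3 on leaving out each library. Limma on TPM gave 0.16 for ERBB3 and 0.076 for TGFA there. Leaving out each library gave -0.60 to 0.011 for EGFR, -0.20 to 0.075 for ERBB2, -0.53 to 0.13 for ERBB3, -0.46 to 0.36 for TGFA and -0.31 to 0.05 for NRG1 in e1 activation, and -0.88 to 0.013 for HBEGF with ARV-771. In the difference of e1 repression and knockout it gave -0.28 to 0.088 for ERRFI1 (0.044 by library size) and -0.47 to 0.086 for SOX2. Against the knockout controls, ERBB2 and BTC in SKMES1 stood at 0.24 and -1.09, and EGF was -0.37 in limma on TPM. The cause was not tested.

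Without a minimum fold, genes called among all tested went from 2764 to 6103 after e1 repression, from 4157 to 7123 after knockout and from 2397 to 4010 for the difference. In e1 activation 28 became 400 by DESeq2, 1116 without a filter, 9 in limma and 1 to 764 on leaving out each library. Replicate numbers were shared in e1 repression (guides 1 and 2) and ARV-771 (cultures A and B). Deviations of same-numbered samples correlated at 0.02 and -0.02 across 11145 and 10855 genes. No shared deviation was seen, but a check on so few samples cannot exclude a pairing. With a replicate block 6 and 4 members were called, as without it. With 2 or 3 libraries a group, small differences, and genes below about 3 counts, could not be measured.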
